A study of Mus musculus with 6 samples.

Results

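Fibroblastic reticular cells are the stromal cells that build the fibre network of a lymph node. They were picked from single-cell RNA libraries of mouse nodes by raw counts of unique transcripts (UMIs). A cell had to have at least 3 UMIs of the collagen gene Col3a1, at least 1 of the platelet-derived growth factor receptors Pdgfra and Pdgfrb, and none of Pecam1, Cd79a or Cd3e, which mark endothelial, B and T cells. Its UMIs of the chemokines Ccl19 and Cxcl13 also had to reach the sum of the adventitial genes Dpt, Pi16, Clec3b and Col14a1. In all, 288 of the 13581 kept cells of the CD45-depleted tumour libraries met this rule, with 190 in the YUMMER1.7 and 98 in the YUMM1.7 library. Over all 6 libraries 49650 cells were kept.

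The study profiled inguinal and axillary nodes of C57Bl/6 mice bearing a YUMMER1.7 melanoma or a YUMM1.7 melanoma, and of tumour-free mice. The YUMM1.7 line comes from a mouse melanoma, and YUMMER1.7 was derived from it by ultraviolet irradiation and is more immunogenic. Each library pooled the nodes of several mice after collagenase digestion, and each arm had 1 library of myeloid cells selected with CD11b and CD11c beads and 1 depleted of CD45+ cells. The labels call the second kind depleted of CD45+ cells, while its protocol speaks of positive enrichment of stroma with CD45 beads. With 1 library per group, no difference given here has a replicate check, no test was possible, and every interval is a 95% interval for counting error only. The naive depleted library held 3 cells that met the rule, and the CD11b/CD11c libraries held 3 (YUMMER1.7), 1 (YUMM1.7) and 0 (naive), too few to describe.

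Reticular cells of the T zone secrete CCL19 and CCL21, which draw T cells and dendritic cells to meet, and interleukin 7, which keeps naive T cells alive. Those of the B cell follicle and of its outer margin, together with follicular dendritic cells, secrete CXCL13, which draws B cells. The network also forms the collagen conduits of the node, and podoplanin signalling sets its tension when the node swells.

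Markers outside the rule were in most of the cells. A UMI of Pdpn, which encodes podoplanin and was not in the rule, was found in 163 of 190 cells (85.8%) of the YUMMER1.7 library and 74 of 98 (75.5%) of the YUMM1.7 library, against 1.95% and 1.05% of B cells. Pdgfrb, which was in the rule, was found in 84.2% and 86.7% of the cells. The member cells were deep, with medians of 22048 UMIs (YUMMER1.7) and 16296 UMIs (YUMM1.7), where B cells had 5165 and 4166. Summed leukocyte markers (Ptprc, Coro1a and Cd52) reached 50.7 and 64.1 CPM (UMIs scaled to a sum of 1000000) in the member cells, against 2410 and 2770 CPM in the kept cells outside the fibroblastic groups. Among 7 melanocytic markers, Mlana, Dct, Tyr, Tyrp1 and Sox10 were at 0 in both, and Pmel was found in 2 and 5 cells. Mitf, the seventh, was found in 101 and 55 cells, and the list summed to 60.1 and 87.2 CPM, against 14.1 and 13.4 CPM in the kept cells outside the fibroblastic groups. The 4 adipocyte markers summed to 174 CPM in YUMMER1.7 and 6.23 CPM in YUMM1.7 cells. Of these Fabp4, which endothelial cells also use, was found in 41 and 8 cells, with 481 of its 736 YUMMER1.7 UMIs in 1 cell, Plin1 in 11 and 0 cells, Adipoq in 0 cells and 1 cell, and Cidec in none. Blood endothelial markers summed to 234.5 and 168 CPM, against 2169 and 960 CPM in the kept cells outside the fibroblastic groups. Of these Plvap was found in 136 and 66 cells and Glycam1 in 114 and 35. Egfl7 was found in 26 and 6 cells, Cdh5 in 16 and 2, Emcn in 15 and 6, Kdr in 7 and 0 and Ptprb in 3 and 2. Pecam1 was absent by the rule. Lymphatic markers summed to 219.5 and 131 CPM, but that list includes Pdpn, which most member cells held. Of its other genes, Flt4 was found in 12 and 4 cells, Prox1 in 8 and 4 and Lyve1 in 4 and 4. Mmrn1 was found in 3 and 2 cells and Reln in 0 and 2. Cells with no UMI of an adipocyte marker numbered 139 and 89. Transcripts of some perivascular markers were in most member cells. Rgs5 was found in 158 and 85 of them, at 776 and 728 CPM, against 3.61% and 2.03% of B cells. Des was found in 173 and 89 cells, Acta2 in 145 and 80, Kcnj8 in 141 and 64, Myh11 in 109 and 66, and Notch3 in 106 and 57. The rest of that list was found in few cells, Mcam in 27 and 10, Itga7 in 7 and 3, Cspg4 in 5 and 3, and Higd1b in 4 and 2. Leaving out cells with at least 2 UMIs of perivascular markers left only 17 and 3 cells. Between the 2 libraries 12 barcodes were shared, and none of them was a reticular cell.

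Near the edges of the rule, 22 member cells of the YUMMER1.7 library and 11 of the YUMM1.7 library had a chemokine sum no more than 5 UMIs above the adventitial sum, and 9 and 10 cells lay 1 to 5 UMIs below it. The cells just inside had median chemokine sums of 2.5 and 3 UMIs, and those just outside had 3 and 1.5. Another 84 and 54 cells failed only through a UMI of Pecam1, Cd79a or Cd3e. They carried median chemokine sums of 172 and 90 UMIs, where the members carried 151 and 79.

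Reticular cells took a larger share of the YUMMER1.7 library. They made up 3.65% (3.16 to 4.19) of kept cells in the YUMMER1.7 library and 1.17% (0.951 to 1.43) in the YUMM1.7 library, a log2 ratio of 1.64 (1.29 to 1.99). The bead depletion can set this share, and its part was not tested. Against other stroma the gap was smaller. Reticular cells made up 18.1% (15.8 to 20.5) of all fibroblastic and endothelial cells in the YUMMER1.7 library and 12.7% (10.5 to 15.3) in the YUMM1.7 library, a log2 ratio of 0.50 (0.18 to 0.83). Among fibroblastic cells alone the shares were 70.9% (65.1 to 76.3) and 62.0% (54.0 to 69.6), and their intervals overlapped.

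The balance of the chemokines leaned to Cxcl13 in the YUMMER1.7 library. Cells with more Cxcl13 than Ccl19 UMIs numbered 132 of 190, or 69.5% (62.4 to 75.9), in the YUMMER1.7 library and 49 of 98 (39.7% to 60.3%) in the YUMM1.7 library. Cells with more Ccl19 made up 27.9% (21.7 to 34.9) and 45.9% (35.8 to 56.3). The rule used the sum of the 2 chemokines and not their balance. With each cell thinned to 1000 UMIs, 114 of 190 cells had more Cxcl13 in the YUMMER1.7 library and 44 of 98 in the YUMM1.7 library. Most cells held transcripts of both genes, 168 and 83 of them. Cells that should lack these chemokines held them too: a UMI of Cxcl13 was found in 55.3% of B cells of the YUMMER1.7 library and 28.1% of those of the YUMM1.7 library, and a UMI of Ccl19 in 11.6% and 4.07%. The part of free RNA or of doublets in the balance was not tested.

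**Figure D1:**
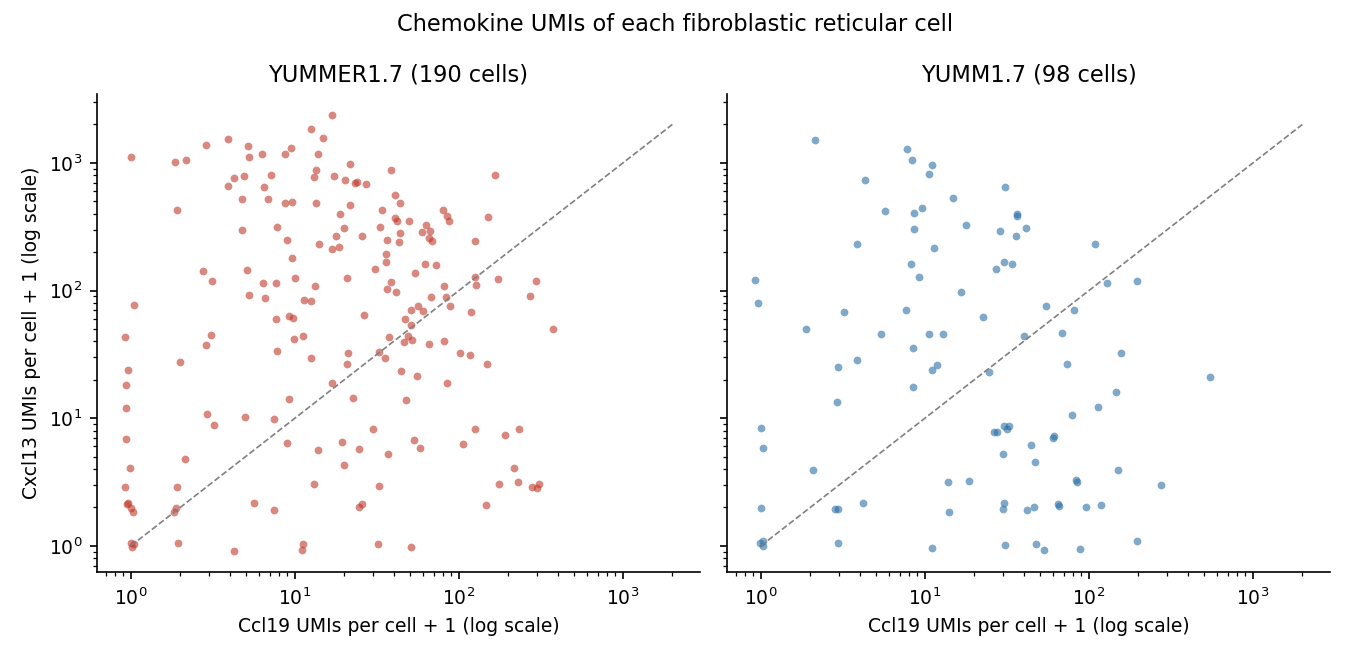
Ccl19 UMIs (horizontal, plus 1, log scale) against Cxcl13 UMIs (vertical, plus 1, log scale) of each reticular cell, with YUMMER1.7 on the left and YUMM1.7 on the right; points are spread slightly and the dashed line marks equal counts. Above the line lie 132 of 190 YUMMER1.7 cells and 49 of 98 YUMM1.7 cells.

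The summed level of the homeostatic chemokines was alike in the 2 libraries, at 23921 CPM in YUMMER1.7 and 23878 CPM in YUMM1.7 cells, while its parts differed in direction. Cxcl13 stood at 11470 and 8760 CPM, and Ccl19 at 1934 and 2607 CPM, both of them genes of the rule. Ccl21a, the other T zone chemokine, stood at 7414 CPM in YUMMER1.7 and 9939 CPM in YUMM1.7 cells, a log2 ratio of -0.42 (-0.45 to -0.40). Ccl21a has near-identical gene copies in the mouse, so the assignment of its reads is uncertain. Within cells with more Ccl19, Ccl21a differed by only -0.08, and within cells with more Cxcl13 its log2 ratio was 0.68. Over all member cells, the library with the smaller share of cells with more Ccl19 was also the one with less Ccl21a. The part of this share in the Ccl21a difference was not tested. Cxcl12, which retains plasma cells and many leukocytes, stood at 2659 and 2278 CPM, a log2 ratio of 0.22 (0.17 to 0.28).

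Of 14 measured survival factors 1 was at least 2-fold higher in YUMMER1.7 cells and none lower, where 1.55% of all measured genes lay past 2-fold in each direction. The median log2 ratio was 0.25, with 8 of the 14 above 0, and it was 0.00 in cells with more Ccl19. Il7 stood at 176 and 177 CPM over all member cells. A UMI of Il7 was found in 65.15% of YUMMER1.7 and 32.65% of YUMM1.7 cells with more Cxcl13. In cells with more Ccl19 the shares were 81.13% and 77.78%. These shares were not brought to equal depth. Tnfsf13b, which encodes the B cell survival factor BAFF, stood at 320 CPM in YUMMER1.7 and 231 CPM in YUMM1.7 cells, a log2 ratio of 0.47 (0.30 to 0.64). Il33, an alarmin stored in the nuclei of reticular cells, stood at 1237 and 801 CPM, a log2 ratio of 0.63 (0.54 to 0.72). The median cell had 973 CPM of Il33 in the YUMMER1.7 library and 703 CPM in the YUMM1.7 library, and 174 and 88 cells held at least 1 UMI, against 7.41% and 2.75% of B cells. Kitl, which encodes stem cell factor, lay the other way, at 163 and 207 CPM (log2 -0.35, -0.54 to -0.15). Tnfsf11, which encodes RANKL and marks reticular cells of the follicle margin, stood at 294 and 233 CPM (log2 0.33, 0.17 to 0.50). Within cells with more Cxcl13 it differed by -0.08. Of cells with more Ccl19, 27 of 53 in YUMMER1.7 and 11 of 45 in YUMM1.7 held a UMI of Tnfsf11. The log2 ratio of these shares, not brought to equal depth, was 1.06 (0.23 to 1.89). The member past 2-fold was Il6, at 23.8 and 9.34 CPM, where 1 cell carried 30% of the UMIs in YUMMER1.7 and 1 cell carried 47% in YUMM1.7.

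Across the transcriptome the reticular cells of the 2 libraries were close. Of 9791 genes with at least 50 UMIs, 152 (1.55%) were at least 2-fold higher and 152 (1.55%) at least 2-fold lower in YUMMER1.7 cells, and the median log2 ratio was -0.04. When the cell with most UMIs of each gene was left out of each library, 212 genes were higher and 104 lower. The library totals were kept, and 1 cell is a larger part of 98 YUMM1.7 cells than of 190 YUMMER1.7 cells. This setting thus tends to raise ratios by construction, and the median over all genes was then 0.01. A single cell carried at least 25% of a gene's UMIs in the higher library for 31 of the 152 higher genes and 55 of the 152 lower genes. For the lower genes that library was YUMM1.7, with fewer cells and UMIs, so these counts cannot be compared directly. In cells with no UMI of an adipocyte marker 124 genes were higher and 117 lower. Of the 152 higher genes, 138 also had a ratio above 0 in the kept cells outside the fibroblastic groups, as did 60.1% of all measured genes, and 95 did in adventitial fibroblasts, where 49.0% of all did. Of the 152 lower genes, 55 had a ratio below 0 in the kept cells outside the fibroblastic groups, as did 39.9% of all, and 92 in adventitial fibroblasts, where 51.0% of all did. Cell mixture and the stromal RNA found in other cells also differed between the libraries, and their part in these counts was not tested.

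Of the 12 genes named as higher by the size rule, Angptl4 and Fgf23 were found in the most cells. Fgf23, the phosphate-regulating hormone known from bone, stood at 209 CPM in YUMMER1.7 and 39.2 CPM in YUMM1.7 cells, a log2 ratio of 2.42 (2.05 to 2.81). It was found in 84 of 190 (44.2%) and 18 of 98 (18.4%) cells, against 1.90% and 0.622% of B cells. Its ratio was 3.87 within cells with more Ccl19 and 2.10 within cells with more Cxcl13. In adventitial fibroblasts Fgf23 was low in both libraries, at 15 and 17.4 CPM. Angptl4, a secreted inhibitor of lipoprotein lipase, stood at 195 and 47.3 CPM, a log2 ratio of 2.04 (1.7 to 2.40), and was found in 117 (61.6%) and 35 (35.7%) cells, against 1.95% and 1.10% of B cells. Its ratio was 1.36 and 2.02 within the cells with more Ccl19 and with more Cxcl13, and 0.83 in adventitial fibroblasts. In cells with no UMI of an adipocyte marker the Angptl4 ratio was 2.04 and the Fgf23 ratio 2.50. Thinned to 1000 UMIs per cell, Fgf23 was found in 14.2% of YUMMER1.7 and 1.02% of YUMM1.7 cells, and Angptl4 in 14.7% and 2.04%. Both genes were thus found in a larger share of YUMMER1.7 cells at equal depth too. In the kept cells outside the fibroblastic groups Fgf23 stood at 74.2 and 25.4 CPM and Angptl4 at 25.5 and 7.67 CPM, both also higher in the YUMMER1.7 library.

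Metallothioneins, small proteins that bind zinc and copper, were higher together. Mt1 stood at 323 CPM in YUMMER1.7 and 97.7 CPM in YUMM1.7 cells, a log2 ratio of 1.73 (1.49 to 1.97), and Mt2 at 138 and 23.7 CPM, a log2 ratio of 2.54 (2.07 to 3.06). A UMI of Mt1 was found in 126 of 190 (66.3%) and 46 of 98 (46.9%) cells, against 8.58% and 4.95% of B cells. A UMI of Mt2 was found in 75 and 18 cells, against 3.70% and 1.44% of B cells. Among the reticular cells, Mt2 differed mainly in cells with more Cxcl13, at 177 and 29.8 CPM. Cells with more Ccl19 had 23.1 and 17.5 CPM and a ratio of 0.40 (-0.62 to 1.49). Mt2 was more abundant in adventitial fibroblasts and higher in YUMMER1.7 there too, at 429 and 166 CPM (log2 1.37, 1.10 to 1.65). In all kept cells outside the fibroblastic groups, whose mix of cell types differed between the libraries, the Mt2 ratio was 1.61 and the Mt1 ratio 1.43. In B cells Mt1 stood at 31.9 and 18.1 CPM and Mt2 at 9.58 and 4.71 CPM. The promoter windows of both genes (250 bases before to 50 after the start, RefSeq, GRCm38.p6, plus strand) are given because the pair moved together. They lie at chr8:94178839-94179138 for Mt1 and chr8:94172368-94172667 for Mt2. Capitals mark the core of the metal response element, searched as TGCACNC and TGCGCNC on both strands, which is found in the windows of 25.7% of all 32851 promoters in the table. Mt1 holds 3 matches and Mt2 holds 4.
Mt1: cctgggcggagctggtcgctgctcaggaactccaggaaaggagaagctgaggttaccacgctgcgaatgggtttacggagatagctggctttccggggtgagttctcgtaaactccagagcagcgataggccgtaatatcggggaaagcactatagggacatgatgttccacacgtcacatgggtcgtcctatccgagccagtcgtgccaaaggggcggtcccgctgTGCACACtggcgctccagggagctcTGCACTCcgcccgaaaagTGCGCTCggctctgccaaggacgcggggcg
Mt2: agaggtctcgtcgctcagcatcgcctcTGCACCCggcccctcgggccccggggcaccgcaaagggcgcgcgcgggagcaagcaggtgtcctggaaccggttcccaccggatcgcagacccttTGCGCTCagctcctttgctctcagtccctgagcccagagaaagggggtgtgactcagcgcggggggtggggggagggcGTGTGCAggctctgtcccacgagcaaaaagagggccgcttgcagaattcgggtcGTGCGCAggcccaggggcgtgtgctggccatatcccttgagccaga

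Further genes named by the size rule came from fewer cells. Ptx3, a soluble pattern recognition protein, had 153 UMIs in 23 YUMMER1.7 cells and 0 UMIs in YUMM1.7 cells, so its log2 ratio was at least 4.24 against a floor of 3 UMIs over the group, with a lower counting limit of 3.93. It was at least 1.54 in cells with no UMI of other cell types. Cxcl14, a chemokine of skin and other epithelia, stood at 194 and 16.8 CPM (log2 3.53, 2.98 to 4.14), in 27 and 3 cells. Of its UMIs, 1 cell held 32% in YUMMER1.7 and 1 cell held 48% in YUMM1.7. Its ratio was 3.95 in cells with more Cxcl13, but -1.74 in cells with no UMI of other cell types, and -1.66 in cells with more Ccl19, where 3 and 1 cells held it. Gfra1, a receptor for glial cell line-derived factor, had 73 UMIs and 1 UMI (log2 4.76, 2.24 to 10.08). Prg4, Smoc2 and Mgp, which encode lubricin, a matricellular protein and an inhibitor of calcification, had log2 ratios of 3.35, 2.77 and 2.06, but each was far more abundant in adventitial fibroblasts, where Mgp reached 4737 and 3641 CPM. Cxcl14 (1253 and 581 CPM there), Ptx3 (124.5 and 45.2 CPM) and Ifi205 (330 and 215 CPM) were also more abundant in adventitial fibroblasts. Gfra1, Reg3g and Cfap53 were lower there than in reticular cells in the YUMMER1.7 library. In cells with no UMI of other cell types the ratio of Prg4 was 1.77 and that of Smoc2 0.92, short of 2-fold. Reg3g, an antimicrobial lectin, stood at 29.1 and 4.36 CPM (log2 2.74), Cfap53, a ciliary gene, at 25.7 and 2.49 CPM (log2 3.37), and Ifi205, of the interferon-inducible p200 family, at 68.7 and 14.3 CPM (log2 2.26).

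The 12 genes named as lower leaned on single cells. At least 25% of the UMIs came from 1 cell for 10 of the 12, against 3 of the 12 named as higher. The share was taken in the higher library, which for the lower genes was YUMM1.7. That library had fewer member cells (98 against 190) and fewer UMIs, so these counts cannot be compared directly. Hamp, which encodes hepcidin, had 6 UMIs in YUMMER1.7 cells and 116 in YUMM1.7 cells, but 114 of the 116 UMIs lay in 1 cell, and without the top cell of each library its ratio was -0.84 (-3.97 to 2.74). Opcml, an adhesion molecule of neurons, had 1 and 55 UMIs, of which 41 lay in 1 YUMM1.7 cell. Il13ra2, the decoy receptor of interleukin 13, leaned less on 1 cell, with no cell above 18% of the UMIs. It stood at 6.01 CPM in YUMMER1.7 and 35.5 CPM in YUMM1.7 cells (log2 -2.56, -3.29 to -1.87). It was found in 14 (7.37%) and 10 (10.2%) cells, against 0.341% and 0.168% of B cells. The log2 ratio of the shares of reticular cells was -0.47 (-1.59 to 0.65), and all 10 YUMM1.7 cells had more Ccl19 than Cxcl13. Hmcn1, a matrix protein of basement membranes, stood at 11.8 and 43.0 CPM (log2 -1.86, -2.42 to -1.32), in 30 and 24 cells. Fndc1, Creb5, Tmem100, Cacna2d3, Plppr1, Nav2, Fhl1 and the pseudogene Art2a-ps made up the rest, with log2 ratios between -3.13 and -1.90. Cacna2d3 had -0.12 in cells with no UMI of other cell types and -0.97 in cells with at least 10 UMIs of Col3a1, so its 2-fold difference ended there. Art2a-ps has a close paralog, so its counts are uncertain. Opcml, Fndc1, Creb5, Tmem100 and Fhl1 were far more abundant in adventitial fibroblasts of both libraries, where Fndc1 reached 377 and 363 CPM. The rest of the 12 were not more abundant there in both libraries.

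**Figure D2:**
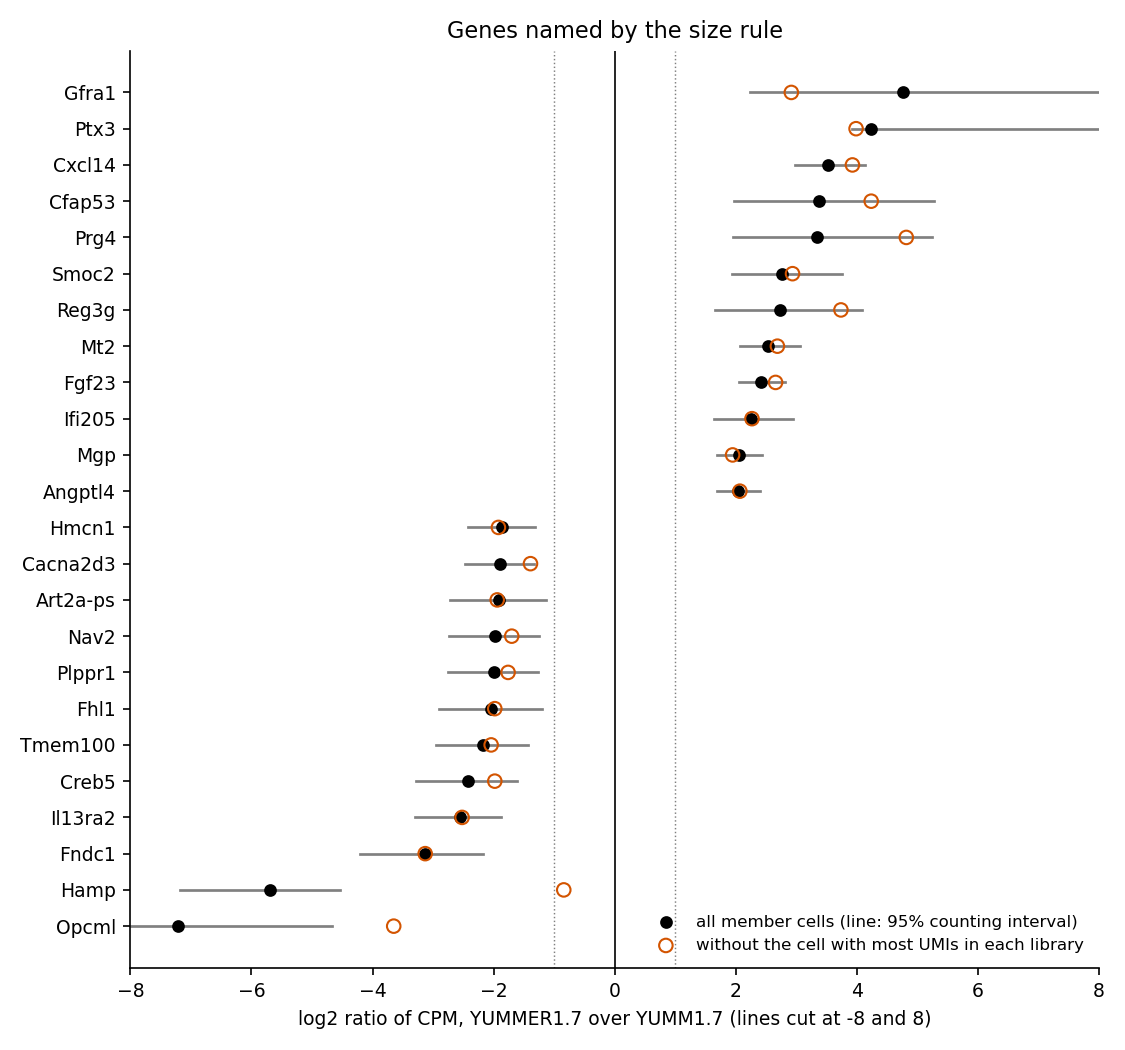
Log2 ratio of CPM, YUMMER1.7 over YUMM1.7 (horizontal), of the 24 genes named by the size rule; black points are all member cells with 95% counting intervals, open circles the ratio without the cell with most UMIs in each library, and dotted lines mark 2-fold. Hamp moves to -0.84 when the top cells are left out, while Fgf23, Angptl4 and Mt2 stay above 2.

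Of 39 measured members of the reticular fibre and matrix list, 4 were at least 2-fold higher and 0 lower. Of all measured genes 1.55% lay past 2-fold in each direction. The median log2 ratio was 0.20, and it was -0.01 in cells with no UMI of an adipocyte marker and -0.07 without the deepest cells. Col1a1, a fibril collagen of the conduits, stood at 1626 CPM in YUMMER1.7 and 1617 CPM in YUMM1.7 cells. Of the basement membrane genes in the list, Col4a1 stood at 1129 and 774 CPM (log2 0.54, 0.45 to 0.64) and Col4a2 at 654 and 447 CPM (log2 0.55, 0.43 to 0.67), while Lamc1 (log2 0.04), Lama4 (0.08) and Col18a1 (-0.15) lay near 0. The members past 2-fold were Fbln2, a matrix linker (log2 1.45, 1.17 to 1.74), the collagen cross-linking enzyme Loxl2 (1.26, 0.74 to 1.82), Nid2, a basement membrane linker (1.20, 0.60 to 1.86), and Sparcl1, where 1 cell held 64% of the YUMMER1.7 UMIs and the ratio without the top cells was 0.85. Among 17 measured proteases and inhibitors 4 were higher, against the same 1.55% of all measured genes. Mmp3, the protease stromelysin, stood at 972 and 306 CPM (log2 1.67, 1.53 to 1.81), in 134 and 47 cells, against 4.44% and 1.12% of B cells. Its median cell had 164 CPM in the YUMMER1.7 library and 0 CPM in the YUMM1.7 library. Its ratio was 1.83 in cells with more Cxcl13, 0.59 in cells with more Ccl19, and 0.70 in adventitial fibroblasts. Adamts1, Mmp19 and Timp1 had log2 ratios of 1.10, 1.36 and 1.35, and without the top cell of each library Timp1, an inhibitor of such proteases, had 0.90.

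Contractile genes lay near 0 as a list. The median log2 ratio was -0.05. None of 21 measured members passed 2-fold, where 1.55% of all measured genes did in each direction. Acta2, the smooth muscle actin that reticular cells also use, was at 433 CPM in YUMMER1.7 and 830 CPM in YUMM1.7 cells (log2 -0.94, -1.04 to -0.84), and Myh11, a smooth muscle myosin, at 114 and 182 CPM (log2 -0.68, -0.89 to -0.46). Pdpn went the other way, at 212 and 120 CPM (log2 0.82, 0.60 to 1.05), and its ratio was 0.50 in cells with more Ccl19 and 0.79 in cells with more Cxcl13.

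Growth factors were mixed. Of 33 measured members 6 were at least 2-fold higher and 1 lower, against 1.55% of all measured genes in each direction. Besides Angptl4, the higher ones included the lymphatic growth factor Vegfd (39.1 and 10.6 CPM, log2 1.89), the epithelial growth factors Fgf7 (88.8 and 35.5 CPM, log2 1.32) and Fgf10 (66.9 and 30.5 CPM, log2 1.13), and the WNT antagonist Sfrp1 (155 and 61.0 CPM, log2 1.34). Vegfd was found in 51 and 10 cells, and 1 YUMMER1.7 cell held 50 of its UMIs. The lower one was Rspo3, a WNT enhancer, at 12.3 CPM in YUMMER1.7 and 29.9 CPM in YUMM1.7 cells (log2 -1.29, -1.88 to -0.69). Igfbp5, at 218 and 426 CPM (log2 -0.97), stayed just inside the limit. Fgf7 was higher in both kinds of cells, with ratios of 1.71 and 1.04 where Ccl19 and Cxcl13 led, whereas Fgf10 had -2.39 and 1.25.

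Several inflammatory genes were higher, and some of them were carried by few cells. Of 17 measured members 5 passed 2-fold higher and 0 lower, against 1.55% of all measured genes in each direction. The median log2 ratio was 0.40. Those 5 were Cxcl5, Cxcl10, Il6, Lcn2 and Ptges. Cxcl10, a chemokine for activated T cells, stood at 313 CPM in YUMMER1.7 and 112 CPM in YUMM1.7 cells (log2 1.48, 1.26 to 1.72), but 1 YUMMER1.7 cell held 670 of its UMIs. Cxcl9, which binds the same receptor, stood at 173 and 191 CPM (log2 -0.14). Ptges, a prostaglandin E synthase, was spread over 70 and 16 cells, at 29.4 and 13.1 CPM (log2 1.17, 0.49 to 1.91). Ccl7, a monocyte chemokine, stood at 288 and 175 CPM (log2 0.72, 0.53 to 0.91) and Ccl2 at 486 and 459 CPM (log2 0.08). Within cells with more Ccl19 the list had a median of -0.29, and within cells with more Cxcl13 it had 0.58. In the kept cells outside the fibroblastic groups the same list had a median of 1.44.

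Few interferon and antigen presentation genes passed 2-fold, where 1.55% of all measured genes did so in each direction. At that share, lists this short would hold few or none. None of 16 measured type I interferon genes passed 2-fold, with a median of -0.21, and 1 of 18 interferon gamma genes did, which was Cxcl10. The interferon gamma list had medians of -0.26 in cells with more Ccl19 and 0.77 in cells with more Cxcl13. B2m, the light chain of MHC class I, stood at 1738 CPM in YUMMER1.7 and 1737 CPM in YUMM1.7 cells, and none of 21 class I members passed 2-fold. Of 7 class II members 1 was lower, the protease Ctss, at 22.2 and 44.8 CPM. The class II median was -0.26, with 1 of 7 above 0, and the summed level was 368 and 417 CPM (log2 -0.18, -0.31 to -0.05). None of 21 members of the lymphotoxin, TNF and NF-kB list passed 2-fold, with a median of 0.03, and Ltbr, the lymphotoxin beta receptor, stood at 44.9 and 33.6 CPM (log2 0.42, -0.03 to 0.88).

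Early response and heat shock genes were modestly higher. Of 22 measured early response genes 21 had a ratio above 0, with a median of 0.40. None passed 2-fold, where 1.55% of all measured genes did in each direction. Jun stood at 1235 CPM in YUMMER1.7 and 813 CPM in YUMM1.7 cells (log2 0.60, 0.52 to 0.69), and Fos at 451 and 342 CPM (log2 0.40, 0.26 to 0.54). Such genes also respond to tissue digestion, and in the kept cells outside the fibroblastic groups the list had a median of 0.31. The 14 heat shock genes had a median of 0.38, with 12 above 0, against 0.30 in those other cells. Bag3, a partner of HSP70 in protein clearance, was the only one past 2-fold, at 304 and 102 CPM (log2 1.58, 1.35 to 1.83), in 143 and 56 cells, against 4.0% and 2.68% of B cells. Its ratio was 1.49 in cells with more Ccl19 and 1.73 in cells with more Cxcl13, but -0.33 in adventitial fibroblasts. Hspa1a, an inducible HSP70 with a near-identical copy in Hspa1b, stood at 588 and 351 CPM (log2 0.75, 0.61 to 0.88). The part of digestion was not tested. The promoters of Bag3 (chr7:128523333-128523632, plus strand) and Hspa1a (chr17:34972107-34972406, minus strand), again from RefSeq on GRCm38.p6, are shown as examples from this group. Capitals mark a pair of heat shock element units, searched as GAANNTTC, which reads the same on both strands and is found in 7.86% of all promoters. Of 14 listed genes 10 had a promoter in the table, and 8 of these held the motif, 1 match each in Bag3 and Hspa1a.
Bag3: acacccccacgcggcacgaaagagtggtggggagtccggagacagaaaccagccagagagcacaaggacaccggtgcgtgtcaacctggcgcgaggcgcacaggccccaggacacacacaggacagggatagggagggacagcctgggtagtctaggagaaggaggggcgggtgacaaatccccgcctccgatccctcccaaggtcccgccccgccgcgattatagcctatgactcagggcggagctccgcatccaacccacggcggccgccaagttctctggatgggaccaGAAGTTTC
Hspa1a: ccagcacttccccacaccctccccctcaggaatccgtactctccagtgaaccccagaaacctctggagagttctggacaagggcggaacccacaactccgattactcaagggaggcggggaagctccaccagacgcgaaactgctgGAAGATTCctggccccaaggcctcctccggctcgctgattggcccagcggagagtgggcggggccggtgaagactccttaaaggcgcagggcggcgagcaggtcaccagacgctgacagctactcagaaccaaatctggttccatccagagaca

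**Figure D3:**
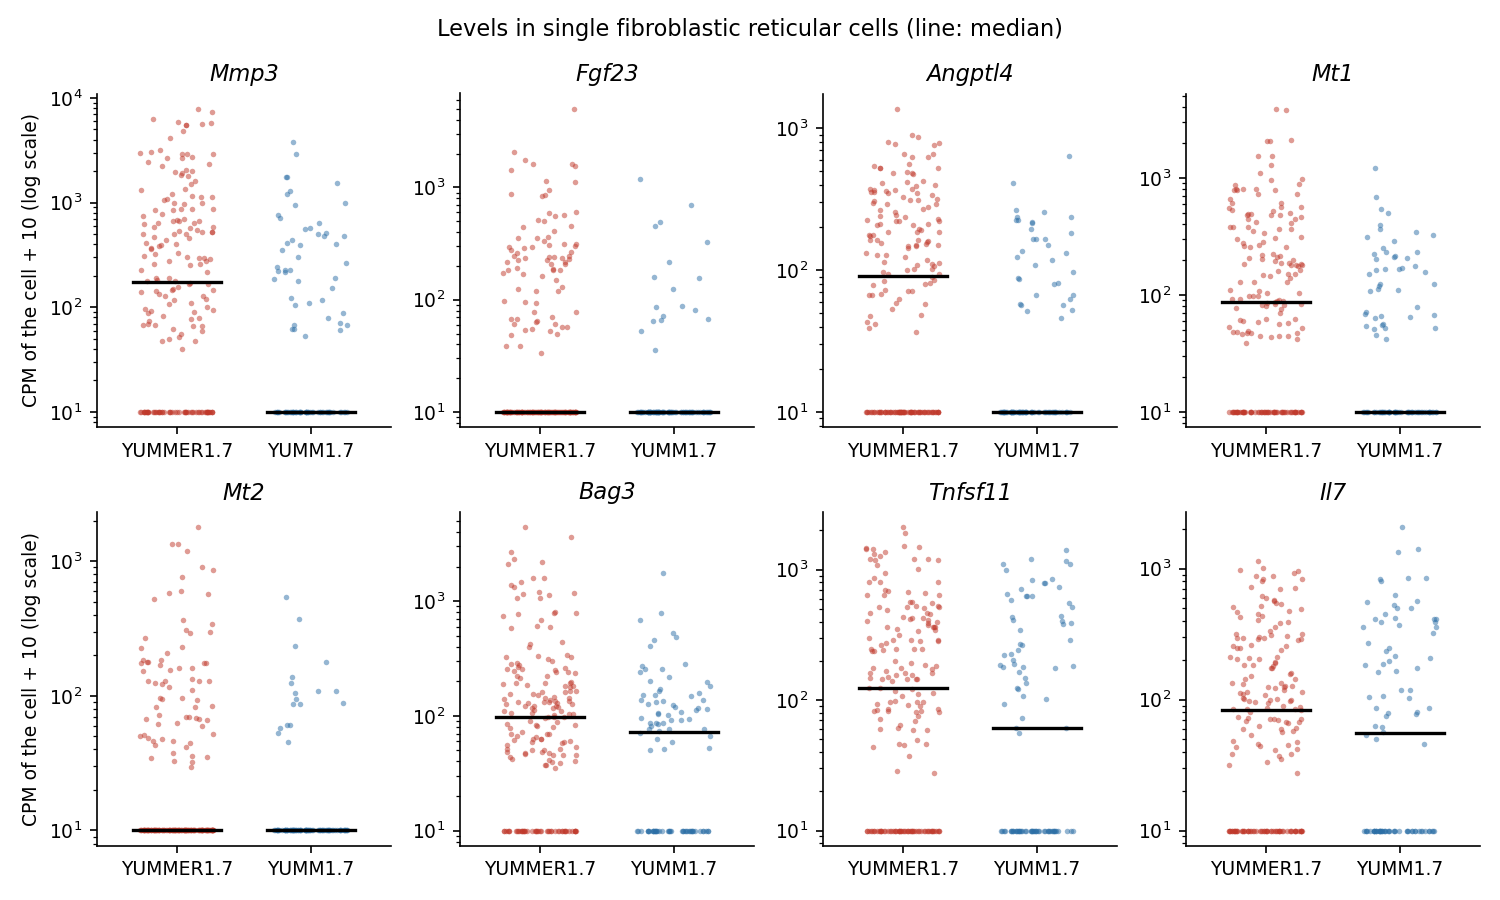
CPM plus 10 of 8 genes in each reticular cell (vertical, log scale), with YUMMER1.7 left of YUMM1.7; lines are medians and cells without a UMI lie at 10. Mmp3, Angptl4 and Mt1 have a median above 0 in YUMMER1.7 cells only, and the Il7 medians are 74.0 and 45.3 CPM.

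The remaining lists, apart from regulatory factors, had at most 1 member past 2-fold. Of all measured genes 1.55% lay past it in each direction. Complement had a median log2 ratio of 0.04 over 13 measured genes, adhesion -0.11 over 17, and lysophospholipid and retinoid metabolism 0.01 over 15. In the adhesion list 1 gene passed 2-fold, the surface glycoprotein Thy1, at 15 and 3.11 CPM (log2 2.27), found in 19 and 4 cells. Glycolysis and hypoxia had 0.34 over 23, with 17 above 0 and 1 gene past 2-fold, Egln3, whose UMIs lay in 14 and 8 cells. Of 10 measured regulatory factors 3 were higher, namely Il6, Ptges and Lgals3 (17.4 and 2.49 CPM). Lgals3 was found in 20 and 4 cells, and 1 YUMMER1.7 cell held 29 of its UMIs. Vcam1, an integrin ligand for lymphocytes, stood at 809 CPM in YUMMER1.7 and 1047 CPM in YUMM1.7 cells (log2 -0.37, -0.46 to -0.29). Enpp2, the autotaxin enzyme that makes a lipid signal for T cell movement, stood at 976 and 1243 CPM (log2 -0.35). The cell cycle list had a median of -0.34 over 17 genes, with 1 above 0, and 1 YUMM1.7 cell held 73% of the UMIs of Cenpf, its only member past 2-fold. Without the top cell of each gene in each library that median was -0.08, and in cells with no UMI of an adipocyte marker it was 0.26.

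**Figure D4:**
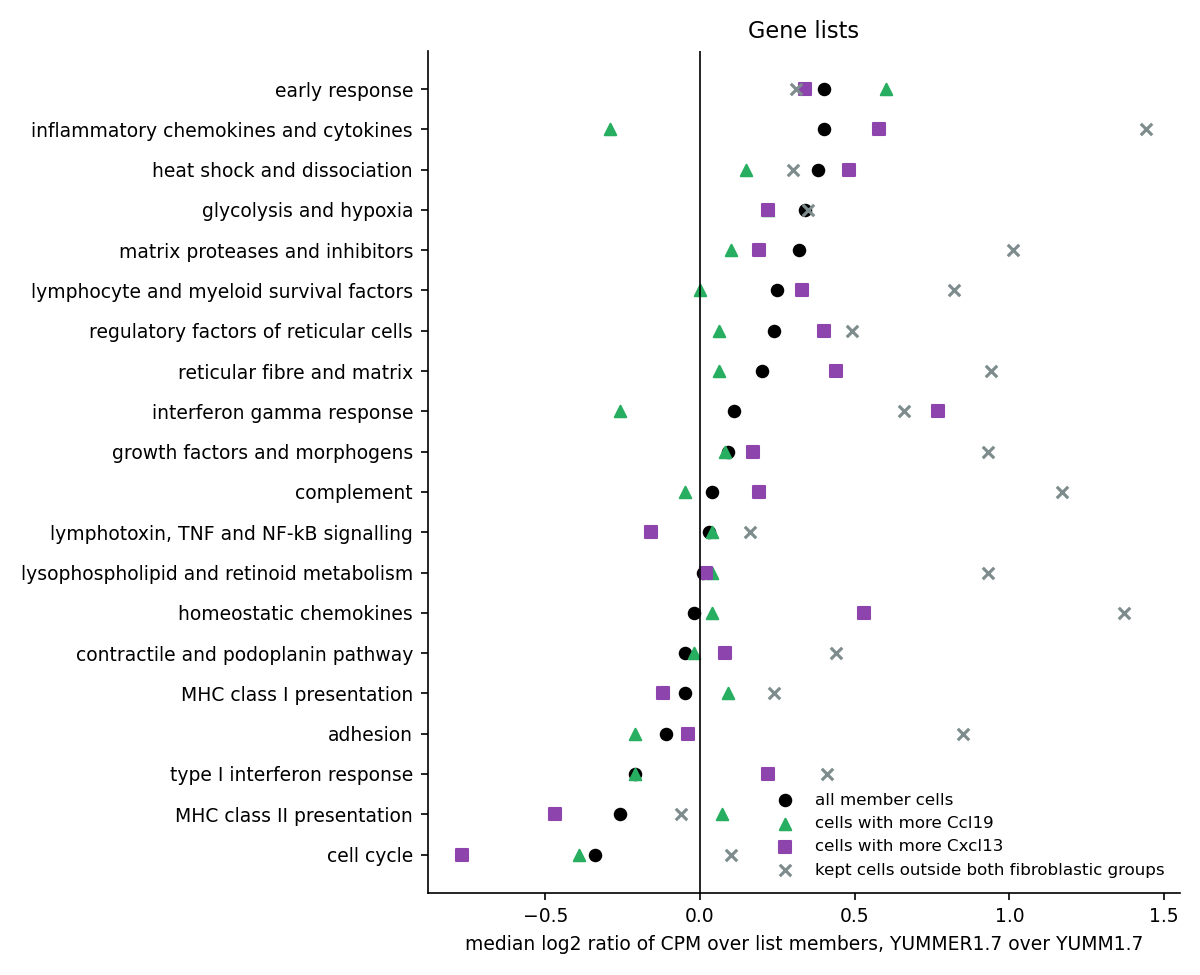
Median log2 ratio of CPM, YUMMER1.7 over YUMM1.7 (horizontal), of 20 gene lists in all reticular cells, in those with more Ccl19, in those with more Cxcl13, and in kept cells outside both fibroblastic groups. Early response and inflammatory genes head the list at 0.40 in all reticular cells, and the other kept cells lie far higher for inflammatory genes, at 1.44.

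The cells with more Cxcl13 and those with more Ccl19 shared a set of differences in both libraries. Since the 2 chemokines made the split, these values describe the subsets and test nothing, and the genes were picked after their values were seen. Of 9783 genes 216 (2.21%) were at least 2-fold higher and 138 (1.41%) at least 2-fold lower in cells with more Cxcl13 in both libraries. Tnfsf11 had log2 ratios of 1.87 in the YUMMER1.7 and 2.39 in the YUMM1.7 library. Ptgs2, the inducible cyclooxygenase, had 4.52 and 4.04, and Timd4, a receptor for phosphatidylserine, had 3.23 and 3.58. Ccl5 had 3.24 and 3.77, but 1 cell held 55.0% of its UMIs in cells with more Cxcl13 in the YUMMER1.7 library and 1 cell held 50.7% in the YUMM1.7 library. Cell cycle genes were higher on this side, with Mki67 at 34.7 CPM in cells with more Cxcl13 and 1.85 CPM in cells with more Ccl19 in the YUMMER1.7 library and 75.2 and 4.03 CPM in the YUMM1.7 library, and 10 of 17 cell cycle genes passed 2-fold in both. Few cells carried them: for 9 of the 10 genes 1 cell held at least 25% of the UMIs of that side in at least 1 of the libraries, and 1 YUMMER1.7 cell held 43 UMIs of Mki67 and 1 YUMM1.7 cell 27. Cr2, the complement receptor of follicular dendritic cells and B cells, was higher as well, but 137 of its 151 UMIs in YUMM1.7 cells came from 1 cell, and at least 5 UMIs were found in only 4 and 2 member cells. On the Ccl19 side Ccl21a had -2.11 and -2.86 and Il7 had -1.36 and -2.73. Igfbp5, Vtn, Fmod and the cystine transporter Slc7a11 also lay there, and Slc7a11 stood at 85.0 CPM in cells with more Cxcl13 and 470 CPM in cells with more Ccl19 in the YUMMER1.7 library, and at 37.0 and 438 CPM in the YUMM1.7 library.

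**Figure D5:**
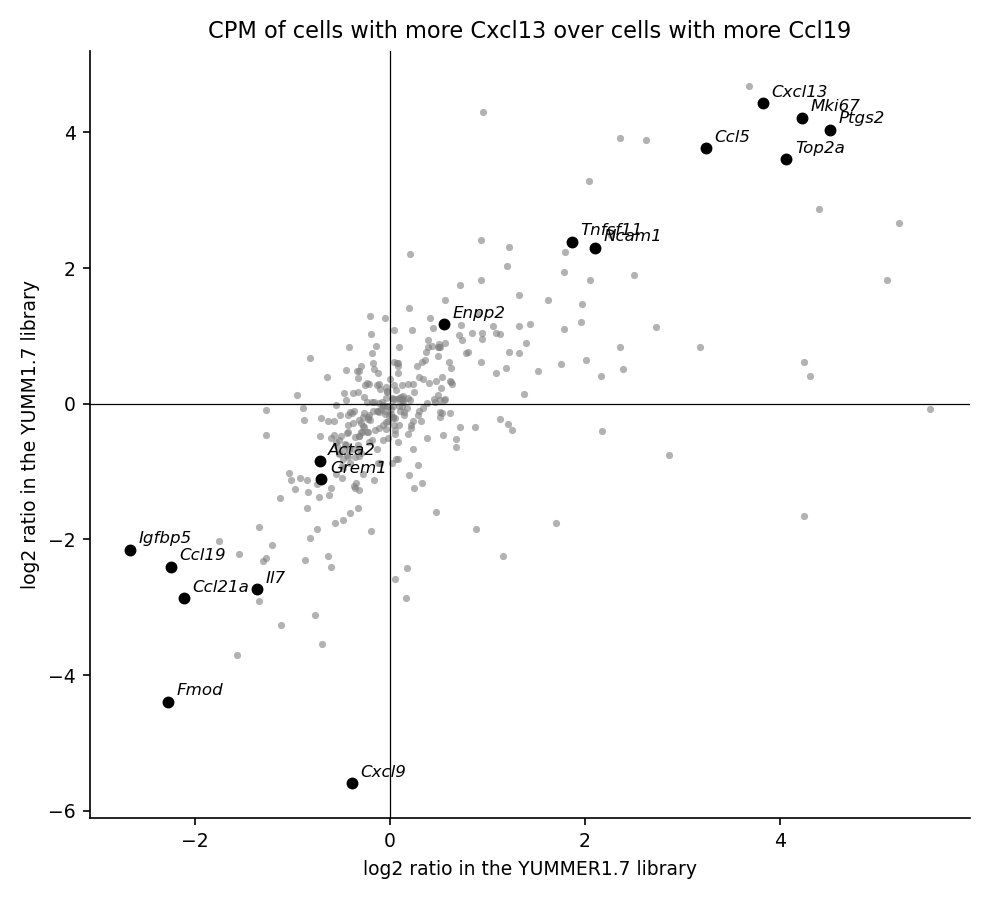
Log2 ratio of CPM in cells with more Cxcl13 over cells with more Ccl19, in the YUMMER1.7 library (horizontal) and the YUMM1.7 library (vertical), for 352 list genes; black points carry names. Ccl21a and Il7 lie below 0 in both libraries and Tnfsf11, Ptgs2 and Mki67 above, while Cxcl9 lies at -0.39 and -5.59.

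Adventitial fibroblasts of the same libraries, 78 in YUMMER1.7 and 60 in YUMM1.7, were the other fibroblastic cells. Of 10739 genes 715 (6.66%) were at least 2-fold higher and 668 (6.22%) at least 2-fold lower in reticular cells in both libraries, in a split that the rule made with chemokine and adventitial genes. Tnfsf11 stood at 294 CPM in reticular and 6.00 CPM in adventitial cells of the YUMMER1.7 library, and at 233 and 2.32 CPM in the YUMM1.7 library. The protocadherin gene Pcdh15 stood at 2286 and 24.0 CPM in the YUMMER1.7 library and at 2818 and 172 CPM in the YUMM1.7 library. Clu and Mfge8, which encode a secreted chaperone and a bridge to dying cells, had log2 ratios of 4.82 and 4.04 in the YUMMER1.7 library and 3.20 and 3.16 in the YUMM1.7 library. Matrix genes lay on the adventitial side, with 31 of 41 measured members lower in reticular cells in both libraries, such as Mfap5 at 36.8 and 2006 CPM in the YUMMER1.7 library. Type I interferon genes did so too, 12 of 25.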

How the data were processed

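The deposited files hold UMI counts per gene and cell barcode, which the authors made with Cell Ranger 8.0.1 and the mm10 build, as the submitters' processing notes say. The matrices of the depleted libraries carry version 7.0.0, per the file headers. How cells were called, and how reads matching more than 1 gene were counted, is not given in the sources used here. A cell needed 1000 UMIs or more and 500 genes or more, with no more than 10% mitochondrial UMIs. UMIs of the member cells were summed per library and scaled to CPM of that sum. Ratios have exact conditional binomial intervals, shares of cells have Clopper-Pearson intervals, and ratios of shares have log intervals. A gene counted as measured with at least 50 UMIs over both libraries, and as past 2-fold with an absolute log2 ratio of at least 1. The size rule named, per direction, the 12 genes past 2-fold with the largest interval bound nearest 0, if their CPM in the higher library was at least that of the cells outside the fibroblastic groups. Genes of the selection rule, ribosomal, mitochondrial, haemoglobin, antigen receptor and sex-linked genes and unnamed models were left out. Members of 20 gene lists were described by role. Members and lists were chosen with earlier results of these data known. Fibroblastic cells that met the same limits but had more adventitial than chemokine UMIs served as adventitial fibroblasts, and B cells had at least 1 UMI of Cd79a and Ms4a1 and none of Col3a1. Scrublet (scanpy 1.11.5) marked 0 cells in the YUMMER1.7 and 1 cell in the YUMM1.7 library, so it did not work, and doublets were left in. Leaving out scores above the 95th percentile was an alternative. No correction was made for free RNA. The total was 67709285 UMIs in the YUMMER1.7 and 76861915 in the YUMM1.7 library, of which the member cells held 4323394 and 1606435. The computations used numpy 2.4.6, scipy 1.17.1 and pandas 2.3.3, and the ratio code was tested on simulated counts.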

Additional observations from a re-analysis of the deposited data

How the results depend on the processing

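No paired analysis was possible because each group had 1 library. The share of reticular cells among kept cells (log2 ratio 1.64) kept its sign in every alternative, and was 3.19 without perivascular-marked cells, where 17 and 3 cells remained, and 0.50 as a share of fibroblastic and endothelial cells. The ratio for the share with more Cxcl13 (0.47) was 0.08 without perivascular-marked cells and 0.09 as the share with at least 1 UMI of Cxcl13. Counts past 2-fold moved most. Against 152 higher and 152 lower genes, there were 93 and 76 in cells with no UMI of other cell types, 339 and 438 with a minimum of 20 UMIs, 79 and 54 with a minimum of 100, and 15 and 5 with each cell thinned to 1000 UMIs. The lower count alone moved to 95 without perivascular-marked cells, 99 without the deepest cells and 291 with cells kept that had UMIs of Pecam1, Cd79a or Cd3e. Cells with more Ccl19 had 55 higher and 74 lower genes, and cells with more Cxcl13 had 274 higher. List members past 2-fold, 27 as reported, numbered 64 without perivascular-marked cells, 8 thinned, 9 in cells with more Ccl19 and 56 in cells with more Cxcl13. Of the 24 named genes, 9, 12 and 14 were past 2-fold without perivascular-marked cells, thinned, and in cells with more Ccl19. Signs turned for Cxcl14 with no UMI of other types (-1.74) and in cells with more Ccl19 (-1.66), for Fgf23 (-1.49) and Reg3g (-1.20) without perivascular-marked cells, for Art2a-ps without the deepest cells (0.06) and with no UMI of adipocyte markers (0.27), and for Il13ra2 (0.06) and Plppr1 (0.86) in cells with more Cxcl13. List medians, here over genes with at least 50 UMIs in the cells of each setting, turned for early response (-0.65, without perivascular-marked cells), cell cycle (0.42 without the deepest cells, 0.26 with no UMI of adipocyte markers, 0.01 with more Ccl19), type I interferon (0.31 thinned, 0.13 with excluded cells kept, 0.21 with more Cxcl13), and, with more Ccl19, MHC class II (0.24) and inflammatory genes (-0.05). Medians nearer 0 as reported turned 44 times more, among them interferon gamma (-0.23 with no UMI of other types), matrix (-0.07 without the deepest cells) and, without perivascular-marked cells, homeostatic chemokines (3.11), MHC class I (1.58), adhesion (0.42) and contractile genes (0.38). Many of these settings leave fewer cells or genes by construction, while keeping cells with UMIs of Pecam1, Cd79a or Cd3e left more cells, 274 and 152. The cause of these changes was not tested. Leaving out top cells, leaving out cells with UMIs of adipocyte markers, splitting by chemokine and keeping cells with UMIs of Pecam1, Cd79a or Cd3e were chosen after seeing the data.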
